A study of Mus musculus with 10 samples.

Results

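CD30-family receptors and regulatory T cell genes were followed across primary mediastinal T cell lymphomas of 10 mice. The set holds 10 genes, of 12670 tested. They are 5 receptors of the TNF receptor family, Tnfrsf8, Tnfrsf4, Tnfrsf9, Tnfrsf18 and Tnfrsf1b, and 5 genes linked to regulatory T cells, Foxp3, Ikzf2, Ikzf4, Lrrc32 and Gpr83. They were chosen by name, and each was read from the probe set whose single annotated symbol is that gene. Each gene had 1 such probe set, and all 10 passed the filter on dim probe sets, a mean log2 level of at least 6.35 over all arrays. Foxp3 lay just above it, with a mean of 6.36.

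All 10 mice carried the NPM-ALK transgene on a C57BL/6 background, and lymphoma arose by 4 to 5 months of age. NPM-ALK is the fusion kinase found in human anaplastic large cell lymphoma. WASP, an activator of actin branching in blood cells, was missing in 5 mice (NPM-ALK/WASP-/-, of either sex) and present in 5 (NPM-ALK, labelled WT). No treatment was given, and the labels do not name the promoter of the transgene. One array was run per tumour on total RNA, and values below are log2 intensities of single probe sets unless called differences. The deposited values had been processed with RMA, which equalises the arrays. Their medians of 116.7 to 122.7 before the log2 are therefore no check of array quality. The number of arrays limits the precision.

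CD30, encoded by Tnfrsf8, is the diagnostic surface marker of anaplastic large cell lymphoma. It belongs with OX40, 4-1BB, GITR and TNFR2 to the receptors that activated T cells display, which signal through TRAF adaptors to NF-kB. The same receptors are displayed by regulatory T cells, which the transcription factor Foxp3 specifies. Helios (Ikzf2) and Eos (Ikzf4) are Ikaros-family zinc finger proteins of regulatory T cells, GARP (Lrrc32) holds latent TGF-beta at their surface, and Gpr83 is a G protein-coupled receptor enriched in them. In human anaplastic large cell lymphoma, the AP-1 protein JunB drives the CD30 promoter.

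The labels were checked first. Was was at 8.20, 8.17, 7.92, 8.14 and 7.96 on WASP-deficient arrays 1 to 5, against 9.25, 9.12, 9.11, 9.34 and 9.27 on WASP-intact arrays 1 to 5. The groups did not overlap, and the limma adjusted p was 0.00088. The labels give no sex for single animals. Xist, an RNA of female cells, was at 4.50 to 5.58 on the WASP-deficient arrays, against 4.40 on WASP-intact array 3 and 11.52 to 11.90 on the other 4 WASP-intact arrays. Xist level and genotype therefore nearly coincided, and what goes with sex cannot be fully told apart from genotype. The T cell markers Cd3e, at 12.06 to 12.59, and Thy1, at 11.86 to 12.31, were high on all 10 arrays.

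A split that runs across both genotypes bears on most results below. Cd2, a T cell adhesion receptor, was at 11.52, 11.18 and 11.30 on WASP-deficient array 1 and WASP-intact arrays 4 and 5. The other 7 arrays, 4 WASP-deficient and 3 WASP-intact, lay between 6.10 and 6.90. A Cd2 level of log2 9 or more is called Cd2-high here. The nearest arrays on either side of it were at 11.18 and 6.90. The Cd2-high arrays also had less Cd3d, at 5.26 to 6.47 against 8.96 to 10.08 on Cd2-low arrays, and more Cd28, a costimulatory receptor, at 11.06 to 11.24 against 6.14 to 8.09. These sets come from the data, are no groups of the study and carry no test. In whole tumours, fewer cells of a type and less RNA per cell cannot be told apart.

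The promoter sequences of the receptors the results turn on are shown first, since the receptor genes differ in them. RefSeq (GRCm38.p6) gave promoter windows for 7 of the 10 genes, and the 250 bases before each annotated start were searched on both strands. The first 2 below are neighbouring genes of chromosome 4, Tnfrsf8 at chr4:145315165-145315414 and Tnfrsf1b at chr4:145246871-145247120, both on the minus strand. The third is the last 60 bases before an internal start of Tnfrsf9, at chr4:150927939-150927998 on the plus strand. Capitals mark matches to the AP-1 motif TGANTCA and to a 10-base NF-kB motif, GGG and TTTCC with any 2 bases between.
Tnfrsf8: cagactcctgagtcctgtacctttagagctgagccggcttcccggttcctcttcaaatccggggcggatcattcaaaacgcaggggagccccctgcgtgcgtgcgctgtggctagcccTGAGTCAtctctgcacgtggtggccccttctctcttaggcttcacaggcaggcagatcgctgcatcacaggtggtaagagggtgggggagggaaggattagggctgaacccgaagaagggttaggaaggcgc
Tnfrsf1b: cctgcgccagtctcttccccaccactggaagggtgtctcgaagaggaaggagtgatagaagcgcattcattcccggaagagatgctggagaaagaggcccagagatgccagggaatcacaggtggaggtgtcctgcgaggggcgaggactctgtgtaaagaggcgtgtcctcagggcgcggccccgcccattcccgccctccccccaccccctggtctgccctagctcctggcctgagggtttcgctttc
Tnfrsf9: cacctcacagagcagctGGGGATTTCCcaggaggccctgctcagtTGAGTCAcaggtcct

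Tnfrsf8 held 1 AP-1 match, which began 132 bases before the start. The internal start of Tnfrsf9 held 1 AP-1 match at 15 bases and 1 NF-kB match at 43 bases before it. The windows of Tnfrsf4, Tnfrsf18, Tnfrsf1b, Foxp3 and Gpr83 and the upstream start of Tnfrsf9 held no match to either motif. Of 32817 promoter windows of the same length, 6.75% held the AP-1 motif and 1.41% the NF-kB motif. No window of the 7 genes held the forkhead motif TGTTTAC, found in 3.16% of all windows, or the CRE motif TGACGTCA, found in 1.55%. The motifs as written do not overlap each other in these windows, and a match is a description of the sequence, not a site.

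Between the genotypes, 0 of the 10 genes passed limma's test over all genes, where 0.00789% of the genes tested passed. At an unadjusted p under 0.05 there was 1 of the 10, Tnfrsf9, beside 366 or 2.89% of all genes. The genotypes overlapped for all 10 genes, and 0.568% of all genes tested had genotypes that did not. Of the 10 genes, 4 had higher and 6 lower mean values in WASP-deficient lymphomas, beside 6195 and 6475 of all genes tested. The median difference over the 10 was -0.07, beside -0.004 over all 12670 genes.

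Among the receptors, Tnfrsf8 was at 10.50, 9.01, 8.61, 8.34 and 7.96 in WASP-deficient lymphomas 1 to 5, against 8.73, 8.62, 8.87, 10.34 and 10.31 in WASP-intact lymphomas 1 to 5. The highest value in each genotype stood on Cd2-high arrays, and the range of the WASP-intact values lay inside that of the WASP-deficient ones. The difference was -0.49 (SE 0.52, 95% interval -1.64 to 0.67, limma adjusted p = 0.999). The interval spans both lower and higher CD30 transcript in WASP-deficient lymphomas. Without the 3 Cd2-high arrays the difference was -0.26, with a narrower 95% interval of -0.77 to 0.25.

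Tnfrsf9 encodes 4-1BB, a costimulatory receptor of activated T cells. It was at 6.94, 7.20, 7.38, 7.66 and 6.97 in WASP-deficient lymphomas, against 6.65, 6.65, 6.87, 6.79 and 6.96 in WASP-intact lymphomas. WASP-deficient lymphoma 1 alone lay below the highest WASP-intact value, that of lymphoma 5, and both are Cd2-high. The difference was 0.45 (SE 0.14, 95% interval 0.13 to 0.76) and did not pass over all genes (limma unadjusted p = 0.00978, adjusted p = 0.999). The exact two-sided permutation p was 0.0159, the lowest of 10 such tests and not adjusted. With the Xist level as covariate in the limma fit to all 10 arrays the difference was 0.39 (SE 0.24), with an unadjusted p of 0.138.

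On the 7 Cd2-low arrays Tnfrsf9 was the 1 gene of the 10 whose genotypes did not overlap, a separation shown by 4.06% of all genes tested there, 1.91% with the WASP-deficient arrays above. In the fit to these 7 arrays limma passed 0.0158% of the genes and 0 of the 10, with 1, Tnfrsf9, at an unadjusted p under 0.05, beside 3.19% of all genes. WASP-deficient lymphomas 2 to 5 lay at 6.97 to 7.66 and WASP-intact lymphomas 1 to 3 at 6.65 to 6.87, a difference of 0.58 (SE 0.16, limma adjusted p = 0.999). Over all 10 arrays, the summed marker intensities of all 11 cell type lists overlapped between the genotypes. Limma passed 0 of the tested markers over all genes. At an unadjusted p under 0.05 were 5 of 8 thymic epithelial, 3 of 13 macrophage and 2 of 4 platelet and erythroid markers tested. So were 1 of 2 B cell, 1 of 7 endothelial, 1 of 7 fibroblast and 1 of 2 mast cell markers. Of the tested T cell, dendritic cell and NK cell markers 0 were, and no neutrophil marker was tested. The share over all genes was 2.89%. WASP-deficient means were higher for 7 of 8 thymic epithelial, 12 of 13 macrophage and 3 of 4 platelet and erythroid markers. They were higher for 1 of 2 B cell, 2 of 7 endothelial, 1 of 2 mast cell and 0 of 7 fibroblast markers. Of all 12670 genes, 6195 were higher. Over 10 dendritic cell markers, of which 5 passed the filter, summed linear intensity was 2680 to 4000 in WASP-deficient and 1924 to 2791 in WASP-intact lymphomas. Over 10 thymic epithelial markers, of which 8 passed the filter, it was 1711 to 3023 and 1244 to 1812 in that order of genotypes, and the defining genes Foxn1 and Psmb11 did not pass the filter. Macrophage markers summed to 7281 to 12697 and 8060 to 10755, again in that order. Platelet and erythroid markers summed to 566 to 1062 and 564 to 631. Fibroblast markers summed to 2561 to 4963 in WASP-deficient and 2401 to 8479 in WASP-intact lymphomas. The highest sums, 4963, 8055 and 8479, were those of the Cd2-high arrays. On the Cd2-low arrays the fibroblast sums were 2561 to 3686 and 2401 to 4313 in the same order of genotypes. The part of these cell types in the Tnfrsf9 values was not tested.

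Tnfrsf4, Tnfrsf18 and Tnfrsf1b did not pass the test of genotype. Tnfrsf4 (OX40) averaged 7.41 ± 0.21 in WASP-deficient and 7.43 ± 0.13 in WASP-intact lymphomas (SD, n = 5 each), and its difference of -0.020 had a 95% interval of -0.27 to 0.23. Tnfrsf18 (GITR) averaged 7.73 ± 0.38 and 7.94 ± 0.26 in WASP-deficient and WASP-intact lymphomas, a difference of -0.21 (95% interval -0.63 to 0.22). Tnfrsf1b (TNFR2) averaged 8.38 ± 0.29 and 8.55 ± 0.27 in the same order, a difference of -0.16 (95% interval -0.53 to 0.21). The interval of Tnfrsf4 was the narrowest of the 5 receptors.

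**Figure D1:**
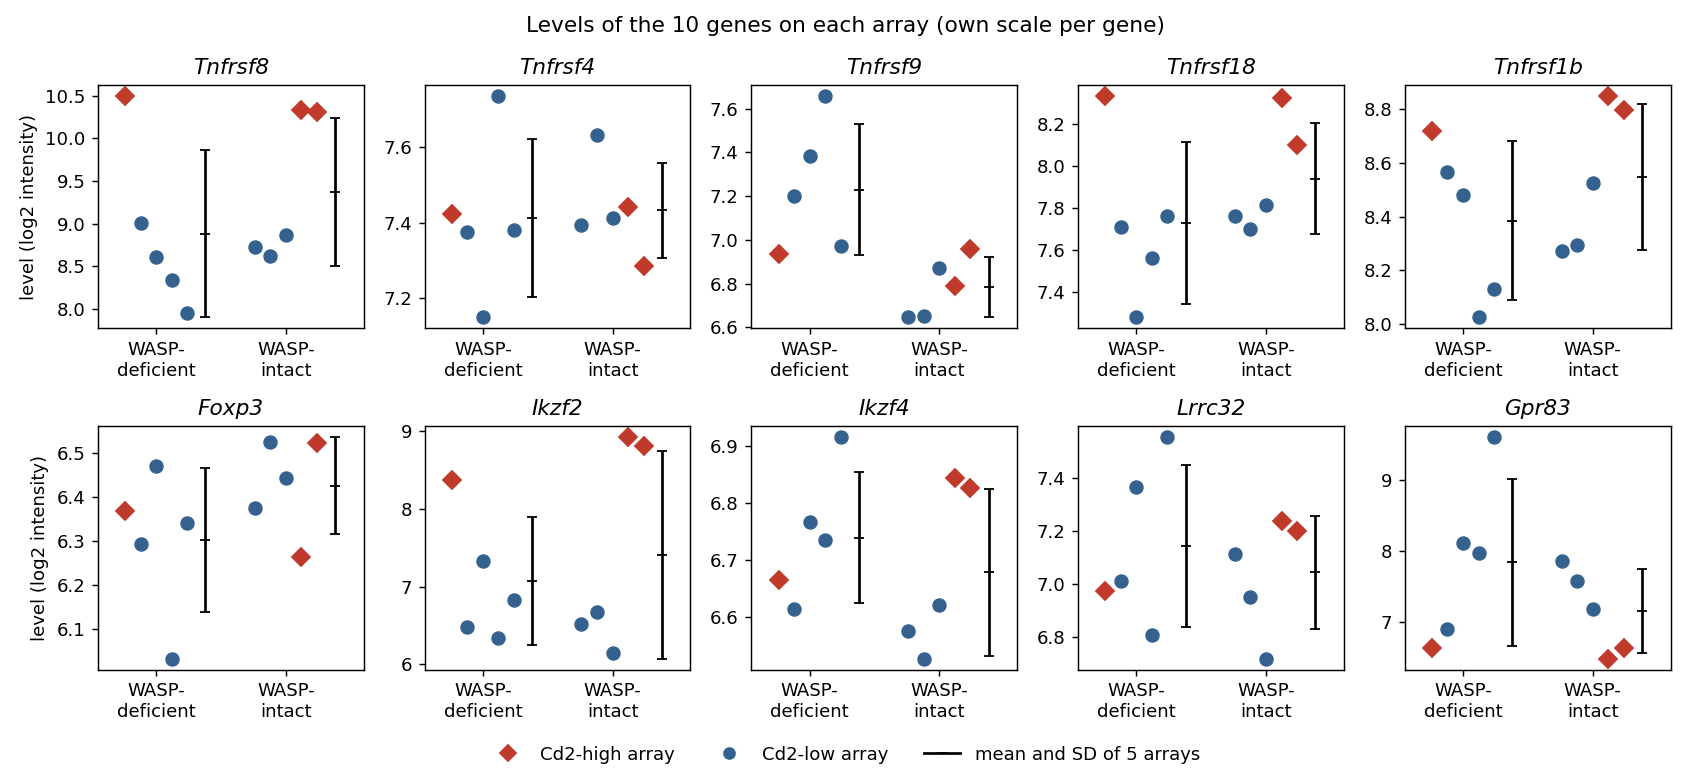
Log2 intensity of each of the 10 genes on the 5 WASP-deficient (left) and 5 WASP-intact (right) arrays, in replicate order, with the mean and SD of each genotype; every panel has its own scale. Diamonds are the 3 Cd2-high arrays: they stand at the top for Tnfrsf8, Tnfrsf18, Tnfrsf1b and Ikzf2 and at the bottom for Gpr83.

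Among the regulatory T cell genes, Foxp3 was at 6.37, 6.29, 6.47, 6.03 and 6.34 in WASP-deficient lymphomas, against 6.38, 6.53, 6.44, 6.26 and 6.52 in WASP-intact lymphomas. All 10 values lay within 0.49 log2 units, around the filter on dim probe sets. The difference was -0.12 (SE 0.10, 95% interval -0.34 to 0.09, limma adjusted p = 0.999). Foxp3 lies on the X chromosome close to Was, with 24 protein-coding genes between them.

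Ikzf2 was at 8.38, 6.49, 7.33, 6.34 and 6.82 in WASP-deficient lymphomas, against 6.52, 6.67, 6.15, 8.92 and 8.80 in WASP-intact lymphomas. The 3 values above 8 were those of the Cd2-high arrays. The difference was -0.34 (SE 0.62, limma adjusted p = 0.999) and turned to 0.30 (SE 0.24, limma adjusted p = 0.999) without those arrays, where the next highest value, 7.33, was that of WASP-deficient lymphoma 3. Ikzf4 averaged 6.74 ± 0.12 in WASP-deficient and 6.68 ± 0.15 in WASP-intact lymphomas (SD, n = 5 each), a difference of 0.06 (95% interval -0.14 to 0.27). Lrrc32 averaged 7.14 ± 0.31 and 7.04 ± 0.21 in WASP-deficient and WASP-intact lymphomas, a difference of 0.10 (95% interval -0.25 to 0.45). Neither passed.

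Gpr83 had the widest range of the 10 genes, 3.10 log2 units. It was at 6.64, 6.91, 8.11, 7.97 and 9.59 in WASP-deficient lymphomas, against 7.86, 7.58, 7.19, 6.49 and 6.64 in WASP-intact lymphomas. WASP-deficient lymphoma 5 was highest and the Cd2-high arrays lowest. The difference of 0.69 (SE 0.52, 95% interval -0.46 to 1.84, limma adjusted p = 0.999) did not pass and was 0.25 without WASP-deficient array 5.

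**Figure D2:**
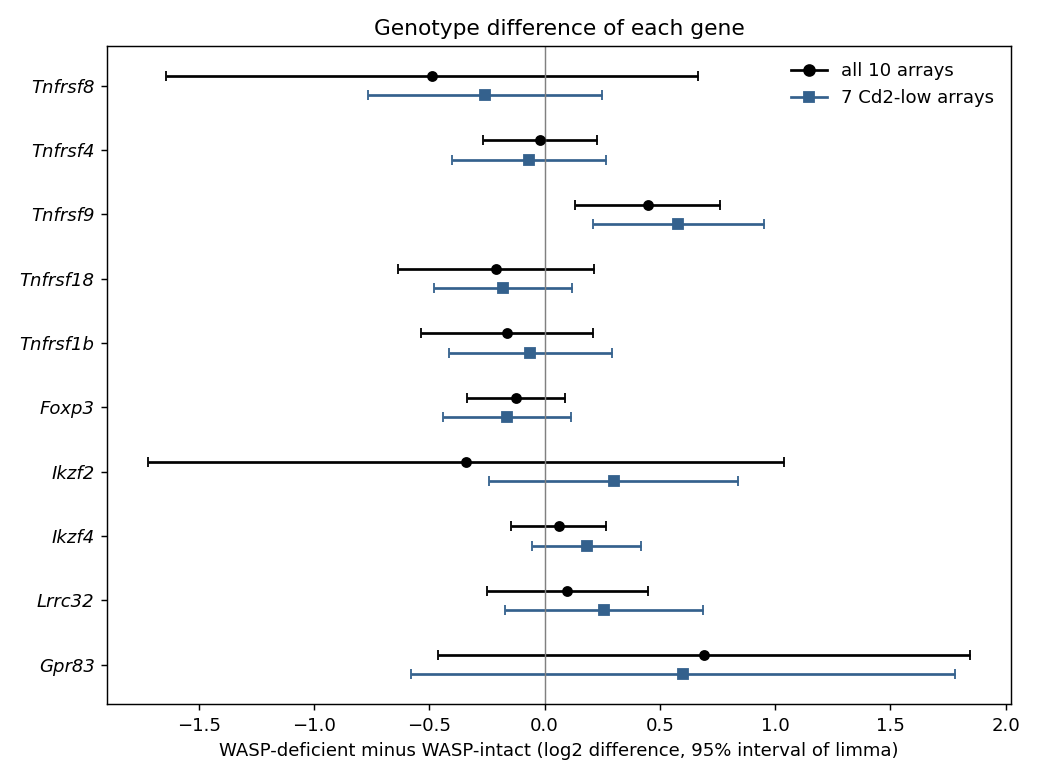
Log2 difference of WASP-deficient minus WASP-intact for each gene, with limma's 95% interval, over all 10 arrays (black circles) and over the 7 Cd2-low arrays (blue squares). The interval of Tnfrsf9 lies above 0 in both, unadjusted for the number of genes, and those of Tnfrsf8 and Ikzf2 narrow without the Cd2-high arrays.

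Read by Cd2 level, 4 of the 10 genes were higher on every Cd2-high than on every Cd2-low array, as were 14.4% of all genes tested, and 1 was lower, as were 16.1%. In either direction that is 5 of the 10 genes, beside 30.5% of all genes. The 4 were Tnfrsf8, Tnfrsf18, Tnfrsf1b and Ikzf2, and the 1 was Gpr83. Tnfrsf8 was at 10.50, 10.34 and 10.31 on the Cd2-high arrays and at 7.96 to 9.01 on the Cd2-low arrays, which left a gap of 1.29. Its medians, 10.34 and 8.62, differed by 1.72, a 3.29-fold higher intensity. Of all genes tested, 203 had a larger difference.

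Tnfrsf18 was at 8.33, 8.32 and 8.10 on Cd2-high arrays and at 7.28 to 7.81 on Cd2-low arrays, a median difference of 0.61. Tnfrsf1b was at 8.72, 8.85 and 8.80 on Cd2-high arrays and at 8.03 to 8.57 on Cd2-low arrays, a median difference of 0.50. Tnfrsf1b is the neighbour of Tnfrsf8 on chromosome 4, with 0 protein-coding genes between them. Tnfrsf4 and Tnfrsf18 are likewise neighbours with 0 protein-coding genes between, yet Tnfrsf4 overlapped, at 7.29 to 7.44 on Cd2-high arrays and 7.15 to 7.73 on Cd2-low arrays. Tnfrsf9 overlapped as well, at 6.79 to 6.96 and 6.65 to 7.66 on Cd2-high and Cd2-low arrays. The neighbours Tnfrsf8 and Tnfrsf1b were thus both apart by Cd2 level, and of Tnfrsf4 and Tnfrsf18 only Tnfrsf18 was.

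Ikzf2 had the largest difference of the 10 genes. Its medians were 8.80 on Cd2-high and 6.52 on Cd2-low arrays, a difference of 2.28 or 4.87-fold, and 115 of all genes tested had a larger one. Foxp3, in contrast, was at 6.26 to 6.52 on Cd2-high arrays and at 6.03 to 6.53 on Cd2-low arrays. The Cd2-high arrays thus had more Helios transcript at overlapping Foxp3 values. Ikzf4 and Lrrc32 also overlapped, with median differences of 0.21 and 0.19. Gpr83 was at 6.64, 6.49 and 6.64 on Cd2-high arrays and at 6.91 to 9.59 on Cd2-low arrays, a median difference of -1.23.

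Markers of NK cells, of fibroblasts and of mast cells had summed intensities that did not overlap between the Cd2 sets. The sums of the lists for B cells, macrophages, dendritic cells, neutrophils, endothelium, platelets and erythroid cells, and thymic epithelium overlapped. Of all single genes tested, 30.5% did not overlap between these sets, 14.4% with the Cd2-high arrays above. Over 8 fibroblast and stroma markers, of which 7 passed the filter, the sum was 4963 to 8479 on Cd2-high and 2401 to 4313 on Cd2-low arrays. Over 8 NK cell markers, of which 3 passed, it was 2986 to 3920 and 821 to 1940 in the same order. The NK receptor genes Ncr1, Klrb1c, Klrk1 and Klrd1 did not pass the filter, and Gzma and Nkg7, cytotoxic granule genes that T cells also use, stood apart. Over 7 mast cell markers, of which 2 passed, it was 611 to 869 and 438 to 595, with Kit apart and the mast cell genes Cpa3, Mcpt4, Tpsb2, Fcer1a and Ms4a2 not passing the filter. The summed T cell list overlapped, at 31471 to 36782 and 26409 to 34989. That list includes Cd2, so its sum draws in part on the gene that set the split. The part of these cell types in the values of the 10 genes was not tested.

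**Figure D3:**
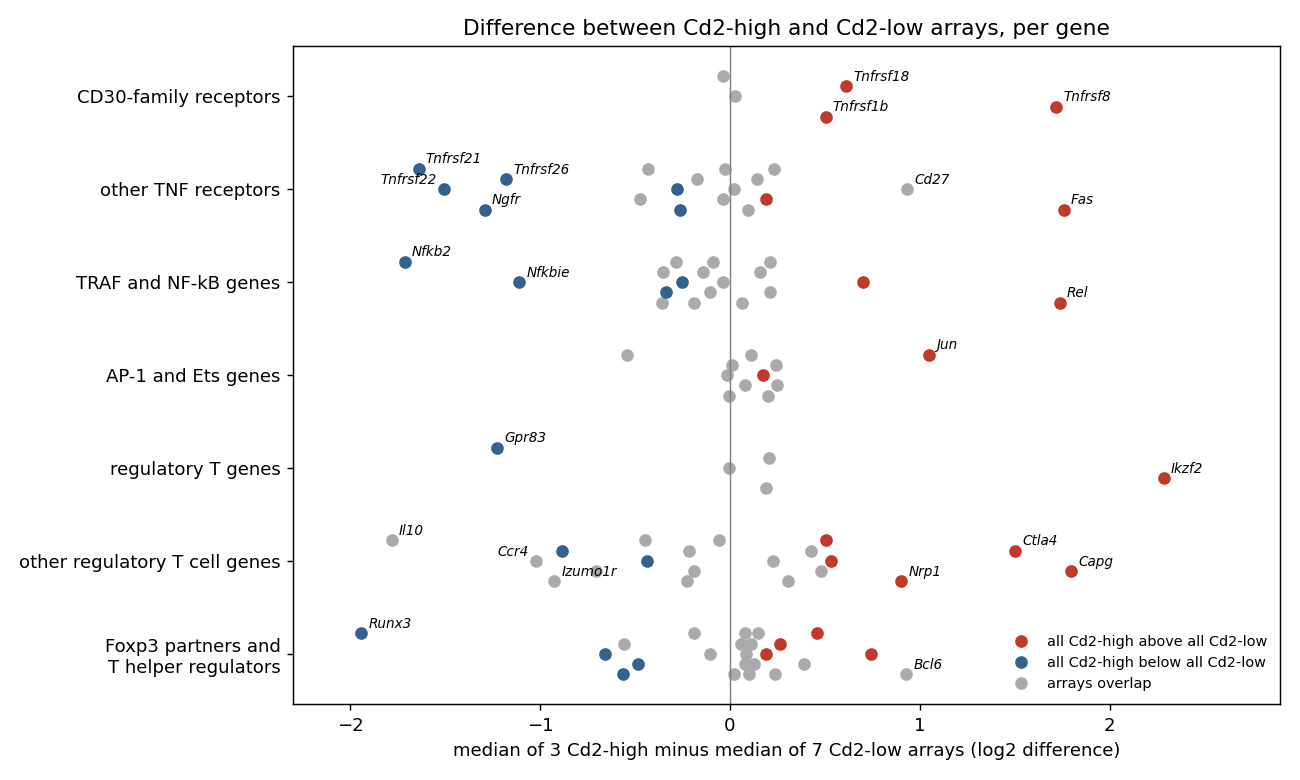
Median of the 3 Cd2-high arrays minus median of the 7 Cd2-low arrays (log2 difference) for each tested gene of 7 lists; red and blue mark genes whose 2 sets of arrays do not overlap. Tnfrsf8 at 1.72 and Ikzf2 at 2.28 lie to the right with Fas, Rel, Jun, Ctla4 and Capg, and Gpr83 at -1.23 lies to the left.

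The ligands were dim. Of 7 TNF-family ligand genes, 2 passed the filter, Tnf and Ltb, and 0 passed the test of genotype (limma, 0 at an unadjusted p under 0.05). Tnfsf8, the ligand of CD30, was at 4.79 to 6.44 in WASP-deficient and 4.93 to 5.87 in WASP-intact lymphomas. Its 3 highest values were those of the Cd2-high arrays, at 5.64 to 6.44 against 4.79 to 5.44 on the Cd2-low arrays. Tnfsf9, the ligand of 4-1BB, was at 5.81 to 6.05 on Cd2-high and 5.13 to 5.62 on Cd2-low arrays. Tnfsf4, Tnfsf18, Lta, Tnf and Ltb overlapped. Of the 7 ligands 2, Tnfsf8 and Tnfsf9, were thus higher without overlap, beside 14.4% of all genes tested. Both lay under the filter and so outside the genes tested.

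Of 18 tested genes among the other TNF receptors, 13 had higher and 5 lower values in WASP-deficient lymphomas, and 0 passed limma's test, also at an unadjusted p under 0.05. Their median difference was 0.09, beside -0.004 over all genes, of which 6195 had higher and 6475 lower values. Tnfrsf19, with the smallest p, was at 0.56 (SE 0.27). By Cd2 level 2 of the 18 were higher without overlap and 6 lower, beside the 14.4% and 16.1% of all genes given above. Fas, the death receptor, was at 7.97 to 8.22 on Cd2-high and 6.07 to 7.0 on Cd2-low arrays, a median difference of 1.76 close to that of Tnfrsf8. Tnfrsf21 was at 8.28 to 8.47 and 9.56 to 10.53 in the same order, and Tnfrsf22 at 7.0 to 7.44 and 8.20 to 8.75.

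Downstream of the receptors, 18 TRAF and NF-kB genes were tested, of which 7 had higher and 11 lower values in WASP-deficient lymphomas. Limma passed 0 over all genes and 1 at an unadjusted p under 0.05, the NF-kB inhibitor Tnfaip3 (difference -0.22, SE 0.10), beside 2.89% of all genes. By Cd2 level, Rel, the NF-kB subunit c-Rel of activated lymphocytes, was at 8.87 to 9.10 on Cd2-high and 7.04 to 7.62 on Cd2-low arrays. Birc3, an inhibitor of apoptosis that binds TRAF2, was at 8.59 to 8.64 and 7.75 to 8.09. Nfkb2, the subunit of the non-canonical pathway, went the other way, at 7.87 to 8.83 on Cd2-high and 9.37 to 10.03 on Cd2-low arrays, as did the inhibitor gene Nfkbie, at 8.61 to 9.09 and 9.56 to 10.16. Of the 18, 2 were higher and 4 lower without overlap, beside the same 14.4% and 16.1%. Traf1 was under the filter, at 5.39 to 6.11 on all arrays.

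Among 11 tested AP-1 and Ets genes, a list that also holds Sp1 and Egr1, 6 had higher and 5 lower values in WASP-deficient lymphomas. Limma passed 0 over all genes and 2 at an unadjusted p under 0.05, Fos (-0.35) and Fosb (-0.36), beside 2.89% of all genes. Jun and Ets1 of the 11 were higher without overlap by Cd2 level and 0 were lower, beside 14.4% and 16.1%. Jun was at 9.04 to 9.79 on Cd2-high and 7.91 to 8.33 on Cd2-low arrays, a median difference of 1.05. Junb, whose protein drives CD30 in the human lymphoma, overlapped at 7.47 to 7.53 on Cd2-high and 6.91 to 7.62 on Cd2-low arrays. Batf3 overlapped too, and Irf4 was under the filter.

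Among the other regulatory T cell genes, 14 of 20 tested had higher and 6 lower values in WASP-deficient lymphomas. Of all genes, 6195 had higher and 6475 lower values. The median difference of the 20 was 0.14, and limma passed 0 of them, also at an unadjusted p under 0.05. By Cd2 level 5 were higher without overlap, Ctla4, Icos, Nrp1, Il10ra and Capg, and 2 were lower, Il2rb and Swap70, beside 14.4% and 16.1% of all genes. Ctla4, an inhibitory receptor of activated and regulatory T cells, was at 8.56 to 9.20 on Cd2-high and 6.27 to 8.38 on Cd2-low arrays. Icos, a costimulatory receptor, was at 7.10 to 7.17 and 6.12 to 7.0. Il10 and Ccr4 had the lowest median differences of the 20, -1.78 and -1.02, and their arrays overlapped. Il10 was at 6.15 to 7.69 on Cd2-high and 7.35 to 9.62 on Cd2-low arrays. The median of the 20 differences by Cd2 level was -0.12, beside -0.016 over all genes. Il2ra, which encodes CD25, overlapped, and its highest value, 10.51, was that of WASP-deficient lymphoma 1, a Cd2-high array.

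Of 23 tested Foxp3 partners and T helper regulators, 9 had higher and 14 lower values in WASP-deficient lymphomas, and limma passed 0, also at an unadjusted p under 0.05. By Cd2 level 4 were higher without overlap and 4 lower, beside 14.4% and 16.1% of all genes. Foxp1 was at 10.43 to 10.84 on Cd2-high and 9.81 to 10.30 on Cd2-low arrays. Runx3, a transcription factor of CD8 T cells that also binds with Foxp3, was at 6.84 to 7.60 and 8.02 to 10.08 in the same order.

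For the 3 genes with an SD of at least 0.5 over the 10 arrays, the 3 tested genes with the nearest levels were found, by the mean absolute gap between gene-centred log2 levels over the 10 arrays. Nearest to Tnfrsf8 were B3galt5, a galactosyltransferase gene, at a gap of 0.14, Ccdc141 at 0.14 and the kinase gene Lrrk2 at 0.15. Nearest to Ikzf2 were the cilium gene Evc at 0.15, the phosphodiesterase gene Pde11a at 0.20 and Tnfaip8l2, an inhibitor of immune signalling, at 0.22. These 6 were chosen for following Tnfrsf8 or Ikzf2 over the same arrays, so their levels by Cd2 add nothing to those of the 2 genes.

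Nearest to Gpr83 were Spry4, an inhibitor of ERK signalling, at 0.24, Izumo1r at 0.26 and the transporter gene Abca5 at 0.29. Izumo1r encodes folate receptor 4, another surface protein of regulatory T cells, and was the 1 listed regulatory T cell gene among the 9. It was at 6.54, 6.20, 7.28, 8.65 and 9.15 in WASP-deficient lymphomas, against 7.75, 7.27, 6.90, 6.15 and 6.36 in WASP-intact lymphomas. WASP-deficient lymphoma 5 was highest for Gpr83 and Izumo1r. Izumo1r was chosen for following Gpr83 over the same arrays, so the shared array adds nothing to the values of Gpr83. Foxp3 was at 6.34 in that lymphoma. Lrrc32, at 7.56, and Ikzf4, at 6.92, had their highest values there. Ctla4, at 6.27, and Icos, at 6.12, had their lowest there.

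**Figure D4:**
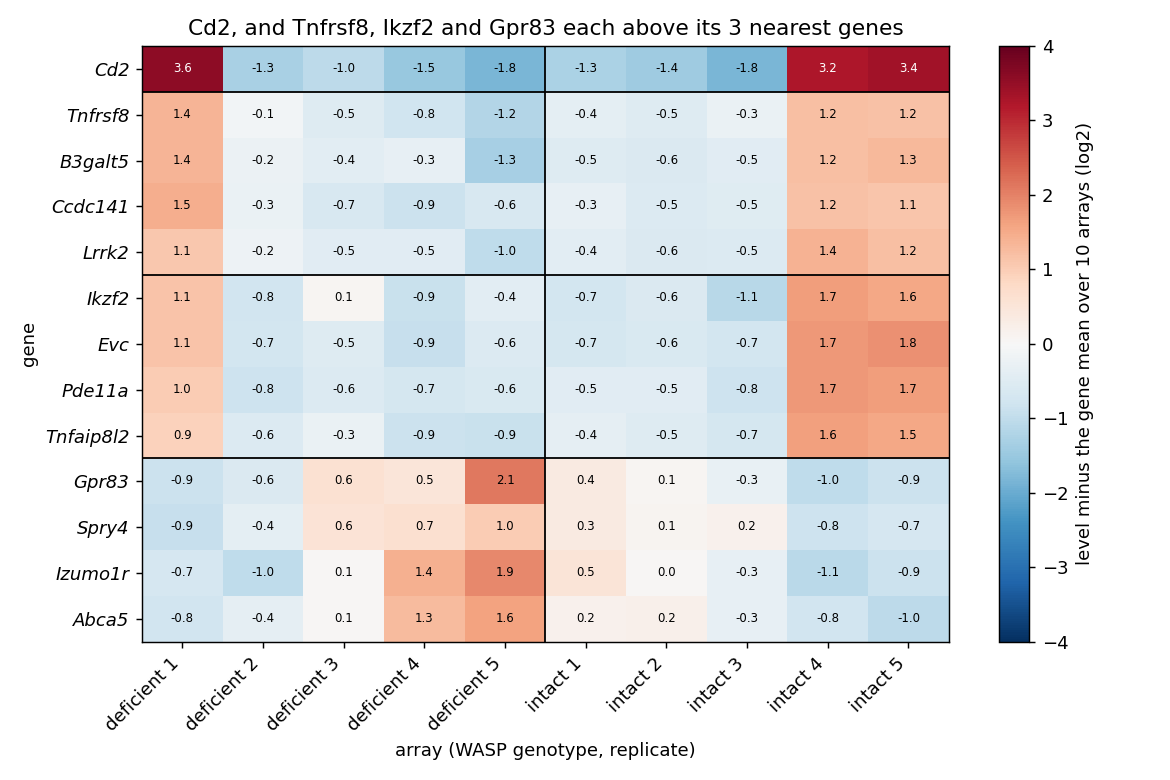
Gene-centred log2 levels of Cd2, and of Tnfrsf8, Ikzf2 and Gpr83 each above its 3 nearest genes, on the 5 WASP-deficient (left) and 5 WASP-intact (right) arrays; the number in a cell is the centred level. Tnfrsf8, Ikzf2 and the genes chosen for their likeness to them are high on WASP-deficient array 1 and WASP-intact arrays 4 and 5. Gpr83 and the genes chosen for their likeness to it are highest on WASP-deficient array 5.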

How the data were processed

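Total RNA of 10 lymphomas was hybridised to 1 array each. The deposited values are probe set intensities on a linear scale, from 3.31 to 15588, which the authors made with RMA, per the submitters' processing notes; the sources used here name no version, build or annotation. RMA equalises the arrays' distributions, so array-wide differences are not visible. The log2 was taken. Of 34760 probe sets, 21640 had 1 annotated symbol, 1321 had several and 11799 had none listed; RefSeq (GRCm38.p6) held the gene IDs of 21553. Probe sets with a mean under the 40th percentile (log2 6.35) were left out and the highest mean kept per gene, which gave 12670 genes. Genotypes were compared with limma 3.58.1 in R 4.3.3 (lmFit, eBayes, WASP-deficient minus WASP-intact, no covariate, Benjamini-Hochberg over all genes, threshold 0.05), a script tested on simulated data, and single values with exact two-sided permutation tests. The labels call the replicates biological. The genes and lists were chosen with earlier results of these data known. Genes were named by a rule set with the lists: the 10 genes, Was, Xist, T cell markers, ligands, chosen regulators, the extremes of each list by p and by Cd2 difference, and the 3 nearest genes; the other genes named, such as Ccr8, Thy1, Nrp1, Cd28 and the cell type markers, were chosen after their values were seen. Figures used matplotlib 3.10.9. Alternatives were other filters, probe set rules, scalings, limma settings, covariates and left-out arrays.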

Additional observations from a re-analysis of the deposited data

Results flagged for a closer look

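Within each genotype, 77 genes were checked for a single array far from the other 4, and 18 of 154 groups had one. Chance gives about 1 in 20, but that share cannot be set against this count, since many of the flagged genes were chosen by their values. Cd2 defines the split, and Rel, Capg, Jun, Bcl6 and Fosl2 were named for the highest Cd2 differences of their lists. Il2rb, Tgfb1 and Nfatc1 were named for small p by genotype. Ccdc141, Evc and Pde11a were chosen for their pattern and Ccr8 after its values were seen. No flagged gene was one of the 10 genes. On WASP-deficient array 1, the Cd2-high array of its genotype, 10 genes stood apart. Cd2 was at 11.52, Cd8a at 10.42, Rel at 8.87, Capg at 9.53, Jun at 9.79, Ccdc141 at 8.55, Evc at 8.23 and Pde11a at 8.64, each above the other 4, and Cd3d at 6.47 and Il2rb at 6.09 lay below them. On WASP-intact array 3, Xist at 4.40, Cd8a at 6.38, Irf4 at 5.56 and Bcl6 at 6.75 lay below the other 4. On WASP-deficient array 4, Tgfb1 at 10.51 and Fosl2 at 8.99 lay above the others. On WASP-deficient array 5, Nfatc1 at 8.93 lay below the others, and Ccr8, a chemokine receptor of regulatory T cells that was under the filter, was at 9.52 against 5.23 to 6.07 on the other 4 WASP-deficient arrays.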

How the results depend on the processing

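None of the 10 genes passed under any of 22 alternative settings of the fit, in 213 values with a lowest limma adjusted p of 0.659. Foxp3, Ikzf2, Ikzf4, Lrrc32, Gpr83, Tnfrsf4 and Tnfrsf9 were not tested with the filter at the 60th percentile, which removed them. The direction held under every alternative for Tnfrsf8, Tnfrsf9, Tnfrsf18, Foxp3, Ikzf4 and Gpr83, but not the size. Other filters, the probe set mean, trend with robust fitting and the replicate block could not change the differences of these genes, by construction. With array weights Tnfrsf8 was at -0.020, Tnfrsf18 at -0.043, Ikzf4 at 0.14 and Gpr83 at 0.23, and with the Xist covariate Tnfrsf8 was at -0.10 and Ikzf4 at 0.13. Leaving out 1 array at a time gave -0.89 to -0.25 for Tnfrsf8, -0.36 to -0.097 for Tnfrsf18, -0.17 to -0.057 for Foxp3, 0.017 to 0.10 for Ikzf4 and 0.25 to 0.99 for Gpr83. It turned for Tnfrsf1b with array weights (0.031), and for Ikzf2 with array weights (0.11), with the Xist covariate (0.82) and without the 3 Cd2-high arrays (0.30). Leaving out 1 array at a time gave -0.10 to 0.045 for Tnfrsf4, -0.67 to 0.038 for Ikzf2 and -0.0047 to 0.18 for Lrrc32. The cause of these turns was not tested. With the Xist covariate every genotype difference rests largely on WASP-intact array 3, the only WASP-intact array with low Xist. Over all genes, Was alone passed. It no longer passed with the replicate block (limma adjusted p = 0.136) or the Xist covariate (limma adjusted p = 0.378). The difference of Was was -1.06 (SE 0.14) with the covariate, beside -1.14 in the main fit. With the block it stayed at -1.14 by construction, since each replicate number holds 1 array of each genotype. The number passing was 0 with the replicate block (248 at an unadjusted p under 0.05), 0 with the Xist covariate (187) and 2 without the Cd2-high arrays (Was and Ybx3), and leaving out 1 array at a time gave 1 to 4: 2 without WASP-deficient array 1 and 4 without WASP-intact array 3 (Was, Xist and the Y-linked Kdm5d and Uty). Same-numbered arrays did not deviate together (correlations -0.71 to 0.37, 2 of 5 over 0.1), so the block rests on a shared number only, and 1 of 10 arrays correlated best with its own number. By Cd2 level, the same 5 genes stood apart after repeated quantile normalization and after centring, both chosen after seeing the data. RMA had already equalised the arrays, so both could move the values only a little and say little of the separation's stability. The other alternatives (Cd2 thresholds of 8 and 10, adding 32, 1 array left out) could not end a separation by their construction and say nothing of its stability. The number of arrays limits the precision, and Foxp3 and most ligands lay near or under the filter.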
